A study of Mus musculus with 14 samples.

Results

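The nuclear-encoded genes of the mitochondrial respiratory chain were followed in blood neutrophils of mice. They were taken by symbol: those beginning with Nduf, Sdh and a, b, c or d, Uqcr, Cox and a digit from 4 to 8, or Atp5, with symbols ending in -ps to be left out (0 were met) and a mean normalised value of at least 1 over the 14 libraries. This gave 78 of the 11288 genes in the table. By symbol they were 35 genes of complex I with 3 of its assembly factors, 4 subunits of complex II with 1 assembly factor, 8 subunits of complex III, 11 of complex IV and 16 of complex V. The 35 complex I genes include Ndufb4c, which GENCODE lists as a processed pseudogene, and Ndufa4, which is now placed in complex IV. The other 77 of the 78 genes, Ndufb4c apart, are annotated as protein coding. Gene names follow the symbols of the files, so that Atp5a1, Atp5b and Atp5c1 stand for the alpha, beta and gamma subunits of the ATP synthase.

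The respiratory chain carries electrons from NADH (complex I) and succinate (complex II) through complex III to oxygen at complex IV, and complex V uses the resulting proton gradient to make ATP. Most subunits are encoded in the nucleus and imported, while a core set in complexes I, III, IV and V is encoded by mitochondrial DNA and made inside the organelle. Mature neutrophils hold few mitochondria and draw their ATP mainly from glycolysis.

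Cells positive for Ly6G, a surface protein of mouse neutrophils, were sorted from red-cell-lysed blood of male C57BL/6 donors aged 7 to 10 weeks and kept free of specific pathogens, and their amplified RNA was sequenced. Wild-type (WT) samples were collected at zeitgeber time (ZT) 5, a clock time of 12 h (3 libraries), and at ZT13, a clock time of 20 h (3 libraries). All mutants were collected at ZT5 and carried floxed alleles with Mrp8Cre: BMALf/f x Mrp8Cre (3 libraries), CXCR2f/f x Mrp8Cre (2 libraries) and CXCR4f/f x Mrp8Cre (3 libraries), called here the BMAL, CXCR2 and CXCR4 groups. Mrp8Cre is active mainly in the neutrophil lineage. The labels give no Cre for the WT mice, so the Cre and each deletion cannot be told apart in comparisons with WT. BMAL (gene Arntl) is a core clock factor, and CXCR2 and CXCR4 are chemokine receptors that govern the release of neutrophils from, and their retention in, bone marrow. Cxcr4 was at 26.2, 13.2 and 17.9 in the CXCR4 group against 268, 485 and 553 in WT ZT5, a log2 difference of -4.43 ± 0.26 (SE; limma, adjusted p = 2.02e-11). Cxcr2 was at 1354 and 1439 in the CXCR2 group against 1322, 2219 and 1731 in WT ZT5 (log2 difference -0.30 ± 0.20, limma adjusted p = 0.542), and Arntl was at 4.37, 0 and 0 in the BMAL group against 12.7, 5.28 and 2.68 (-1.96 ± 0.98, limma adjusted p = 0.386). Arntl was also at 0, 5.07 and 0.731 (WT ZT13), 0 and 3.91 (CXCR2) and 0, 0 and 4.84 (CXCR4). The level of the targeted gene thus did not settle the labels of the CXCR2 and BMAL groups. Directions below are those of libraries so labelled.

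The libraries held 4.08e+06 to 6.68e+06 recovered reads and 9920 to 11022 detected genes. The 15 neutrophil markers summed to 13788 to 23387 in WT ZT5 and 21847 to 23964 in WT ZT13. They summed to 28319 to 29607 (BMAL), 29704 and 34095 (CXCR2) and 36417 to 46135 (CXCR4). Against WT ZT5, log2 differences were positive for 14 of the 15 (BMAL), 14 (CXCR2) and 11 (CXCR4), against 43.6%, 45.8% and 44.3% of all genes. By the limma call 9 of the 15 rose and 2 fell in the CXCR4 group, with or without WT ZT5 replicate 5. In the BMAL group 2 rose and 0 fell, and without that library 0 rose and 1 fell. In the CXCR2 group 1 rose, and 2 without that library. Markers of other cells moved with the groups as well. Calls against WT ZT5 covered 1.02% (BMAL), 0.666% (CXCR2) and 8.2% (CXCR4) of all genes. In the CXCR4 group all 6 immature granule genes rose, with a summed value of 10450 to 16793 against 457 to 1374 elsewhere. Without WT ZT5 replicate 5 this was 5 of 6. In that group 8 of 11 erythroid genes fell with or without that library (sums of 4180 to 13941, 21384 to 119268 elsewhere). Of 11 monocyte and macrophage genes 7 fell and 2 rose (sums of 5135 to 5768, 2691 to 4062 elsewhere), and 6 and 2 without it. All 7 platelet genes had negative log2 differences there (median -2.01), of which 0 passed, and 3 without that library. In the BMAL group 4 of 11 monocyte and macrophage genes fell and 3 of 11 erythroid genes rose (sums of 3320 to 3815 and 59744 to 119268, against 3709 to 4062 and 21384 to 67357 in WT ZT5). Without WT ZT5 replicate 5 each of these BMAL counts was 1. In the CXCR2 group 2 of 11 monocyte and macrophage genes fell (sums of 3377 and 4002). B cell genes summed to 2483 in WT ZT5 replicate 5, to 232 and 581 in the other WT ZT5 libraries and to 102 to 277 in every other library. Of 12 B cell genes, 9 fell in the CXCR4 group and 2 in the CXCR2 group, and 4 and 0 without WT ZT5 replicate 5. The part of these cells in the results below was not tested. In sorted bulk samples, fewer cells of a type and less RNA per cell cannot be told apart, and the labels do not say that replicates were separate animals, so p-values measure the spread between these samples.

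Promoters were looked up because genes of this kind are classic targets of the factors NRF1, GABPA (NRF2) and YY1. RefSeq promoters (build GRCm38.p6, 250 bases before to 50 after the start) matched 65 of the 78 genes. Those of 3 genes are shown: Ndufs4, because it was the gene that passed the test against WT ZT5, and Sdha and Sdhd of complex II, because they hold repeated or mixed motifs. Capitals mark the motif letters found, searched on both strands. The NRF1 motif was GCGCA, any base, then GCGC, the GABPA motif was CCGGAAG, and the YY1 motif was AA, any base, ATGGC, any base, then GC.
Ndufs4, chr13:114388045-114388344, minus strand, with a YY1 motif: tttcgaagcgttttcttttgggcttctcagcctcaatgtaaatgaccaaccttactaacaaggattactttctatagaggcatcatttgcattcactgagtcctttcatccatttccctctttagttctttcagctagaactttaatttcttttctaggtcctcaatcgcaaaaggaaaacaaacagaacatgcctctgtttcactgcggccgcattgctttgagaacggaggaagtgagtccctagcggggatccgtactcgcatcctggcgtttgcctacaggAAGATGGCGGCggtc
Sdha, chr13:74350191-74350490, minus strand, with 3 NRF1 motifs: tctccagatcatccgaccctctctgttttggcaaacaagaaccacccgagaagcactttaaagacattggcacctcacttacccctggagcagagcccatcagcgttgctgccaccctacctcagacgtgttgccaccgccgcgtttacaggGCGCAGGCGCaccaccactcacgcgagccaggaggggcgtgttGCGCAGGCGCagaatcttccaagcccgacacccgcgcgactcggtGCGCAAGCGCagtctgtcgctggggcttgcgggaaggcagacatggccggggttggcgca
Sdhd, chr9:50603800-50604099, minus strand, with an NRF1 and a GABPA motif: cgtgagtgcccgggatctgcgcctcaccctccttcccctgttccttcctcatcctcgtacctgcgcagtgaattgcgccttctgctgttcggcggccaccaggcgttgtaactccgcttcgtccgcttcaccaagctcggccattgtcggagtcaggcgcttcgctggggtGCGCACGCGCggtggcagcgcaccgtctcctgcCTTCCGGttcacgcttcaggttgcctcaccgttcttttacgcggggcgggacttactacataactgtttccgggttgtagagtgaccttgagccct
The NRF1 letters were in the promoters of 15 of the 65 genes (23.1%, against 11.6% of 8282 tested genes and 5.19% of all 27025 genes with a promoter). The GABPA letters were in 18 (27.7%, against 21.4% and 9.93%), and the YY1 letters in 10 (15.4%, against 4.48% and 2.08%). These letters describe the sequence and are no evidence of binding.

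The genes were of middling abundance. Their median value was 14.6 against 14.8 for the 11255 genes tested, and it ran from 1.74 for Ndufb4, an accessory subunit of complex I, to 240.3 for Atp5b, the catalytic beta subunit of complex V. Their transcripts were short, with a median of 763 bases against 2795 over 9784 tested genes with a length. Per kilobase of transcript the highest levels were those of Atp5b (125), Cox4i1 (109), a nuclear subunit of complex IV, Ndufb9 (97.9), an accessory subunit of complex I, Atp5h (91.4), a peripheral stalk subunit of complex V, Cox6c (90.6), a small subunit of complex IV, and Cox7a2l (90.1), a factor of respiratory supercomplexes. The median gene had 72 reads per library, and 16 genes, among them Ndufs5 and Uqcrb, were at 0 in at least 1 library. The steadiest genes between replicates were Atp5b, Cox4i1 and Atp5h, with within-group SDs of 0.22, 0.23 and 0.23 on the log2(value + 1) scale. Over all 78 genes the median within-group SD was 0.66, against 0.73 for the 11255 genes tested.

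Over the 5 groups together, few of the genes passed. In a limma F-test of any difference between groups, 1 of 78 genes (1.28%) had an adjusted p under 0.05, against 7.85% of all genes tested. That gene was Cox6c (adjusted p = 0.0127). Cox6c was found at 51.7, 46.7 and 57.9 (WT ZT5), at 25.5, 35.7 and 20.7 (WT ZT13), at 78, 65.3 and 76.7 in the BMAL group, 77.4 and 56.5 in the CXCR2 group and 64.7, 61.6 and 50.2 in the CXCR4 group. All 3 WT ZT13 libraries lay below every other library. Without WT ZT13 replicate 9 the adjusted p was 0.0821. The next genes were Ndufs4 (adjusted p = 0.0692), Cox5b (0.0780), Atp5c1 (0.0824) and Atp5f1 (0.120), by the same limma test.

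**Figure D1:**
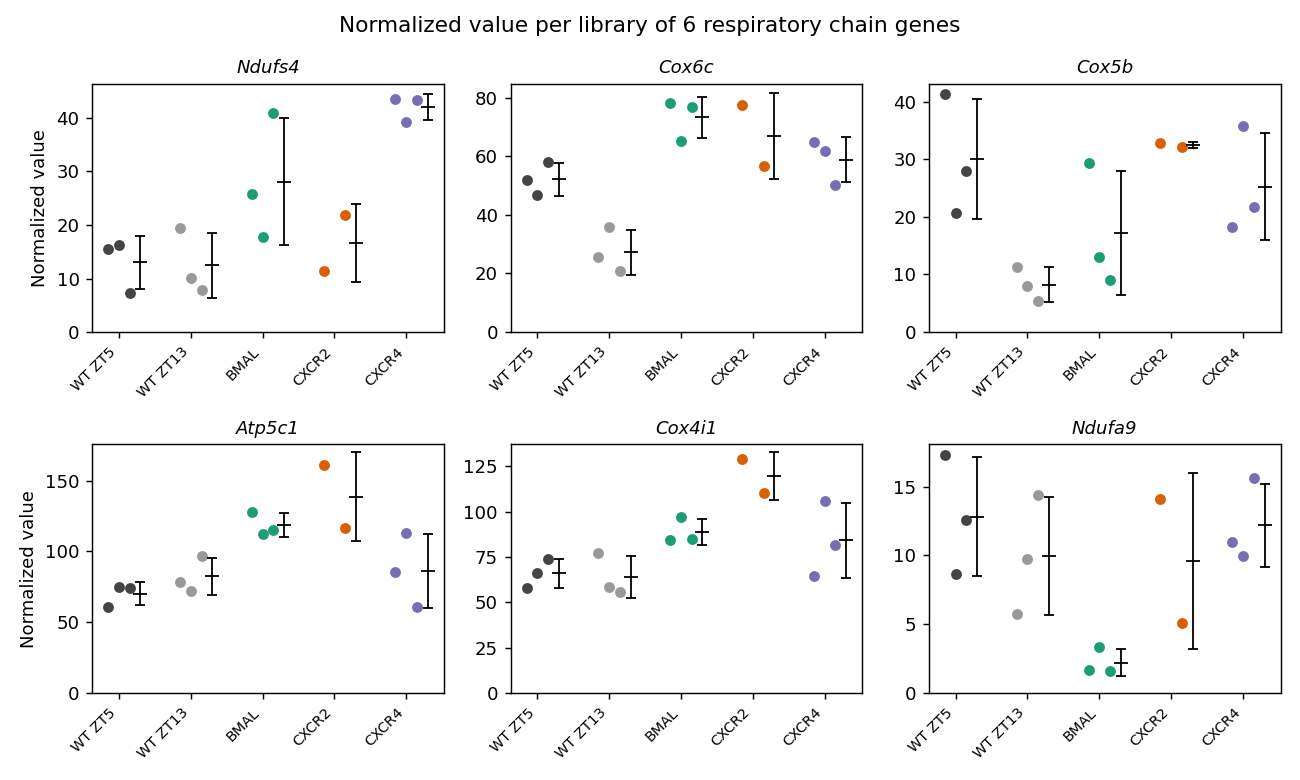
Normalised value (linear axis from 0) of Ndufs4, Cox6c, Cox5b, Atp5c1, Cox4i1 and Ndufa9 in each library (points), with the group mean and SD (bars). Cox6c was lowest in the 3 WT ZT13 libraries (20.7 to 35.7), and Ndufs4 was at 39.3 to 43.5 in the CXCR4 group.

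The question of a time of day effect was addressed by WT ZT13 against WT ZT5. No gene of the set passed (0 of 78, against 0.08% of all genes, 9 in number), and 5 of 78 had an unadjusted p under 0.05, against 10.6%. DESeq2 and edgeR on the recovered reads also called 0 of the set, against 91 of 11226 and 3 of 11255 genes. All 5 were lower at ZT13 (6.41%, against 5.83% lower among all genes). The groups did not overlap for 5 genes (6.41%, against 16.5%). Cox5b, a subunit of complex IV, was at 11.3, 8.03 and 5.36 at ZT13, against 41.3, 20.7 and 28.0 at ZT5. They did not overlap, and the log2 difference was -1.74 ± 0.51 (SE, limma adjusted p = 0.156). Cox6c, with the values above, differed by -0.94 ± 0.29 (limma adjusted p = 0.194). Atp5d, the delta subunit of complex V, was at 14.6, 17.7 and 6.18 against 9.78, 0.423 and 3.41 at ZT13, and Atp5f1, its peripheral stalk subunit b, at 80.6, 64.0 and 76.4 against 47.7, 83.3 and 21.7. Both overlapped, with log2 differences of -1.65 ± 0.75 and -0.71 ± 0.34. Ndufa4 was at 2.41, 7.81 and 1.44 against 0.349, 0.211 and 0, where all 3 ZT13 values lie under a floor of 3 reads. Over the set 29 log2 differences were positive (37.2%, against 45.9% of all genes) and 49 negative, with a median of -0.15 against -0.07 over all genes.

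The BMAL group was set against WT ZT5. No gene passed (0 of 78, against 1.02% of all genes), and 8 had an unadjusted p under 0.05 (10.3%, against 13.5%). DESeq2 called 1, Ndufa9 (log2 difference -2.58, adjusted p = 0.0322), against 255 of 11226 genes in all. By edgeR 0 of the set were called, against 36 of 11255. Ndufa9, an accessory subunit of complex I at the junction of its arms, was at 1.68, 3.35 and 1.57 in the BMAL group and at 17.3, 8.66 and 12.6 in WT ZT5. The 3 BMAL libraries lay below all of the others in the study, and the limma log2 difference was -2.11 ± 0.69 (SE, adjusted p = 0.149). Atp5c1, the gamma subunit that turns within complex V, was at 128, 113 and 115 against 60.8, 75.2 and 74.2. The groups did not overlap (log2 difference 0.76 ± 0.25, limma adjusted p = 0.158), and reads of its pseudogene Atp5c1-ps could share its count. Sdhd, a membrane anchor of complex II, was at 104, 109 and 110.3 against 47.2, 60.6 and 75.6 (0.83 ± 0.30, limma adjusted p = 0.181). Atp5j, coupling factor 6 of complex V, was at 31.8, 36.6 and 58.8 against 9.79, 22.4 and 25.5 (1.15 ± 0.47, limma adjusted p = 0.259); it shares exonic bases with Gabpa. Ndufc1, a small complex I subunit, was at 5.55, 2.23 and 10.4 against 0.381, 0.422 and 0.206, which is at or under the floor of 3 reads in each WT ZT5 library. The groups did not overlap for 13 of the 78 genes (16.7%, against 17.9%), and 50 had a positive log2 difference (64.1%, against 43.6% of all genes), and the median was 0.25 against -0.10. By complex the medians were 0.09 for I, -0.01 for II, 0.09 for III, 0.25 for IV and 0.40 for V.

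The CXCR2 group had 2 libraries, and its standard errors were the widest. No gene passed (0 of 78, against 0.666% of all genes), nor by DESeq2 or edgeR, and 3 had an unadjusted p under 0.05 (3.85%, against 13.5%). Atp5c1 was at 161 and 116 (log2 difference 0.96 ± 0.28, limma adjusted p = 0.109). Cox4i1, the subunit of complex IV at which ATP acts as a brake, was at 129 and 110.5 against 58.0, 65.9 and 74.0 in WT ZT5 (0.85 ± 0.28, limma adjusted p = 0.150). Both CXCR2 libraries lay above every other library for Cox4i1. Atp5l, subunit g of complex V, was at 45.6 and 73.3 against 18.3, 45.6 and 20.4, so that the lowest CXCR2 value and the highest WT value nearly met (1.13 ± 0.51, limma adjusted p = 0.328). Cox7b, a small complex IV subunit, was at 24 and 11 against 6.23, 4.22 and 1.24, and Ndufaf3, an assembly factor of complex I that overlaps Impdh2, at 1.76 and 7.81 against 1.27, 0 and 0. The groups did not overlap for 17 genes (21.8%, against 30.4% of all genes). The median over the set was 0.15 against -0.07, with 45 differences positive (57.7%, against 45.8%), and complex IV had 10 of 11 log2 differences above 0, with a median of 0.37.

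The CXCR4 group was the one in which a gene of the set passed. Ndufs4, an accessory subunit of the NADH-oxidising arm of complex I whose loss causes Leigh syndrome in people, rose in the CXCR4 group. It was at 43.5, 39.3 and 43.3 in the CXCR4 group and at 15.5, 16.3 and 7.21 in WT ZT5. The log2 difference was 1.70 ± 0.50 (SE, limma adjusted p = 0.0333), and the groups did not overlap. In the BMAL group it was at 25.7, 17.7 and 40.9, and in the CXCR2 group at 11.5 and 21.8. The call was lost with edgeR (adjusted p = 0.0580) and without any of CXCR4 replicates 2, 4 and 5 or WT ZT5 replicates 5 and 9, where the adjusted p ran from 0.0518 to 0.160. This was 1 of 78 genes (1.28%), against 8.2% of all genes, and 7 had an unadjusted p under 0.05 (8.97%, against 20.9%). All 7 were higher, against 9.04% higher among all genes.

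The other genes of smallest p in the CXCR4 group did not pass. Ndufb3, a membrane-arm subunit of complex I, was at 11.4, 27.7 and 36.7 against 10.5, 5.49 and 6.18 (log2 difference 1.54 ± 0.58, limma adjusted p = 0.107). Atp5j was at 29.0, 68.8 and 39.4 (1.22 ± 0.47, limma adjusted p = 0.115). Atp5h was at 73.5, 74.3 and 72 against 48.3, 43.7 and 50.5, with close replicates and no overlap (0.62 ± 0.28, limma adjusted p = 0.199). Ndufb9 was at 76.9, 102.7 and 56.7 against 41.3, 56.8 and 50.9, where the lowest CXCR4 and highest WT values crossed (0.63 ± 0.30, limma adjusted p = 0.224). The groups did not overlap for 12 genes (15.4%, against 26.2%). The median over the set was 0.20 against -0.11, with 47 of 78 differences positive (60.3%, against 44.3% of all genes). In these libraries the immature granule genes and the erythroid genes differed as given above.

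**Figure D2:**
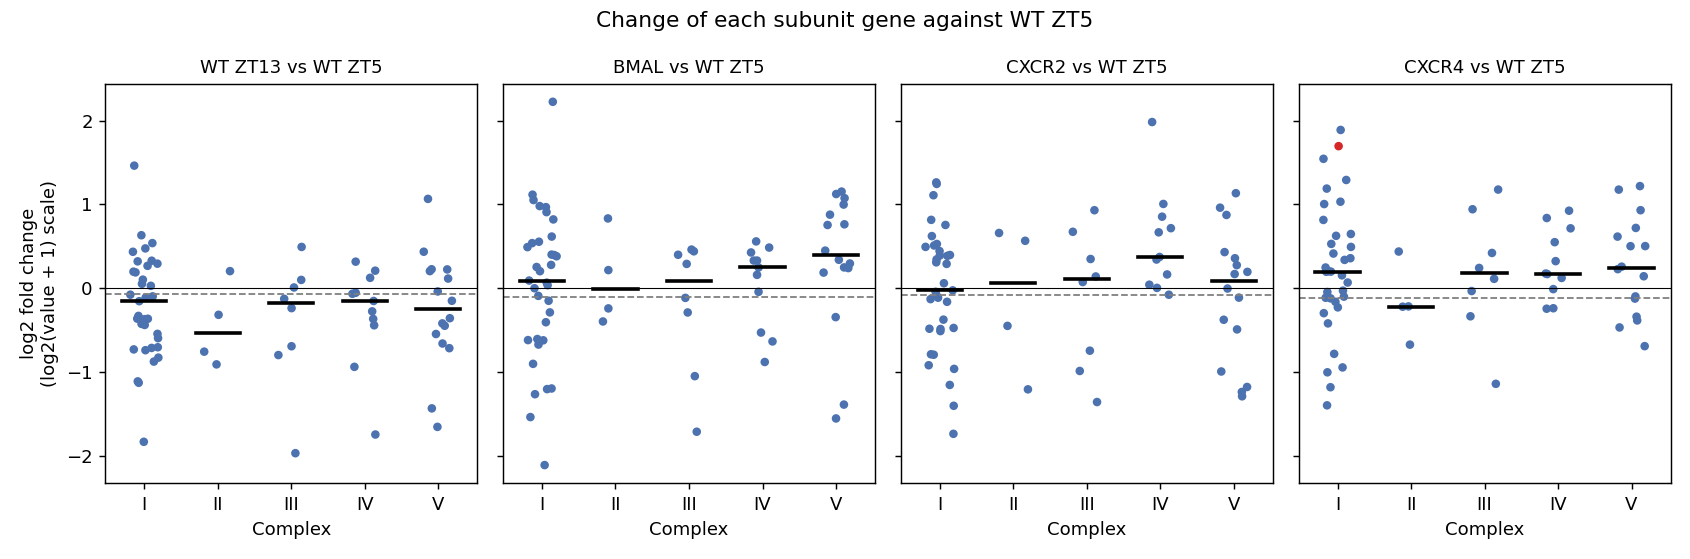
Log2 difference of each subunit gene from WT ZT5 on the log2(value + 1) scale, by complex, for WT ZT13 and the 3 mutant groups; black bars are medians per complex, the dashed line is the median of all 11255 genes and red marks adjusted p under 0.05. The single red point is Ndufs4 (1.70), in the CXCR4 panel.

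The 4 comparisons above share the WT ZT5 libraries, so their values are not independent of each other. Mutant groups were also set against each other. No gene passed in CXCR4 against CXCR2 (0 of 78, against 4.13% of all genes), in CXCR4 against BMAL (0 of 78, against 5.7%) or in BMAL against CXCR2 (0 of 78, against 0.133%). Counts at an unadjusted p under 0.05 were 5 (6.41%), 6 (7.69%) and 6 (7.69%), against 16.7%, 18.8% and 8.01% of all genes. DESeq2 called 1 in CXCR4 against BMAL (Ndufa9, log2 difference 2.48) and 0 in the others, with 0 by edgeR in all 3. Ndufv3, an accessory subunit of the NADH-oxidising module, was at 17.8, 26.9 and 15.3 in the CXCR4 group and at 0 and 8.96 in the CXCR2 group (2.69 ± 0.85, limma adjusted p = 0.0755). Without CXCR2 replicate 5 it passed, with a difference of 4.35 that rests on 1 library at 0. Ndufa9 was at 11, 9.97 and 15.6 in the CXCR4 group, above all BMAL libraries (2.06 ± 0.69, limma adjusted p = 0.0806). Atp5b was lower in the CXCR4 group, at 154, 186 and 211, than in the BMAL group at 301, 227 and 264 (-0.53 ± 0.20, limma adjusted p = 0.136) and than in the CXCR2 group at 299 and 225 (-0.51 ± 0.22, limma adjusted p = 0.238).

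The remaining genes of smallest p in these 3 comparisons were spread over the complexes. Between the CXCR4 and CXCR2 groups, which did not overlap for the next 3 genes, the log2 difference was -0.70 ± 0.28 for Atp5c1 (CXCR4 values of 85.3, 113 and 60.5; limma adjusted p = 0.187). It was 1.35 ± 0.56 for Ndufs4 (limma adjusted p = 0.201). Ndufs1, the large iron-sulphur subunit of the NADH-oxidising arm, was at 54.7, 42.9 and 43.7 in the CXCR4 group and at 14.8 and 42.5 in the CXCR2 group (0.87 ± 0.41, limma adjusted p = 0.277). The highest CXCR2 value of Ndufs1 lay just under the lowest CXCR4 value.
Between the CXCR4 and BMAL groups, Ndufb11, a membrane-arm subunit of complex I, was at 36.2, 26.4 and 32.6 against 17.0, 22.9 and 5.57 (log2 difference 1.2 ± 0.51, limma adjusted p = 0.192). Uqcr10, a small subunit of complex III, was at 15.2, 19.5 and 17.7 against 6.73, 11.3 and 2.09 (1.47 ± 0.69, limma adjusted p = 0.247). Neither gene overlapped between the groups. Sdhaf2, which assists the attachment of flavin to Sdha, was at 30.8, 11.6 and 17.7 against 43.0, 65.5 and 20.0 and did overlap (-1.01 ± 0.48, limma adjusted p = 0.250).
Between the BMAL and CXCR2 groups, Cox5a, a nuclear subunit of complex IV, was at 8.74, 11 and 14.8 against 24.2 and 35.1 (log2 difference -1.30 ± 0.54, limma adjusted p = 0.555). Uqcrc1, a core protein of complex III, was at 23.7, 44.8 and 30.8 against 10.8 and 17.9 (1.14 ± 0.53, limma adjusted p = 0.598). The groups did not overlap for either gene. Ndufv3 was at 10.4, 9.30 and 14.1 in the BMAL group (1.94 ± 0.85, limma adjusted p = 0.569), and Ndufa9 differed by -1.62 ± 0.77 (limma adjusted p = 0.617). Atp5g1, 1 of the genes for the c subunit of the complex V rotor, was at 9.42, 8.37 and 3.13 against 0.220 and 0.689, both CXCR2 values lying at or under the floor of 3 reads (limma adjusted p = 0.516).

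Sums over the subunits of a complex describe its total transcript level, without a test. The 35 complex I genes summed to 438 to 457 (WT ZT5), 414 to 481 (WT ZT13), 510 to 567 (BMAL), 521 to 536 (CXCR2) and 514 to 715 (CXCR4). All 8 libraries with Mrp8Cre lay above all 6 WT libraries, at 121%, 118% and 133% of the WT ZT5 mean of 446. The same 8 lay above the same 6 for the summed neutrophil markers given above, and a link was not tested. Without CXCR4 replicate 4, the library at 715, the CXCR4 mean was 535 in place of 595. Without Ndufa4 and Ndufb4c the 8 libraries lay at 496 to 695 and the 6 at 409 to 479. The scaling mattered: as a share of each library's recovered reads, on the scale of CPM, WT ZT5 replicate 5 reached 516, inside the BMAL range of 503 to 553 and the CXCR2 range of 501 to 518, while the CXCR4 group stayed at 534 to 719. The 3 genes with the highest values held 32.8% of the sum. Without them the BMAL range of 321 to 388 met the WT ZT5 range of 295 to 325. WT ZT13 replicate 9, at 334, then lay above the lowest BMAL library and above CXCR2 replicate 4, at 329. The CXCR4 group stayed above the WT libraries, at 342 to 533. The 11 complex IV subunits summed to 535 and 552 in the CXCR2 group, against 366 to 435 in WT ZT5 and 329 to 383 in WT ZT13. They summed to 397 to 437 in the BMAL group. In the CXCR4 group the sums were 418, 568 and 417, with replicate 4 above both CXCR2 libraries. Sums for complexes II, III and V overlapped WT ZT5 in all mutant groups but for complex III in the CXCR4 group (125 to 152, against 116 to 121). CXCR4 replicate 4 had the highest sum over all 78 genes, 2650; without it the CXCR4 mean was 2064 in place of 2259, against 1995 in WT ZT5.

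**Figure D3:**
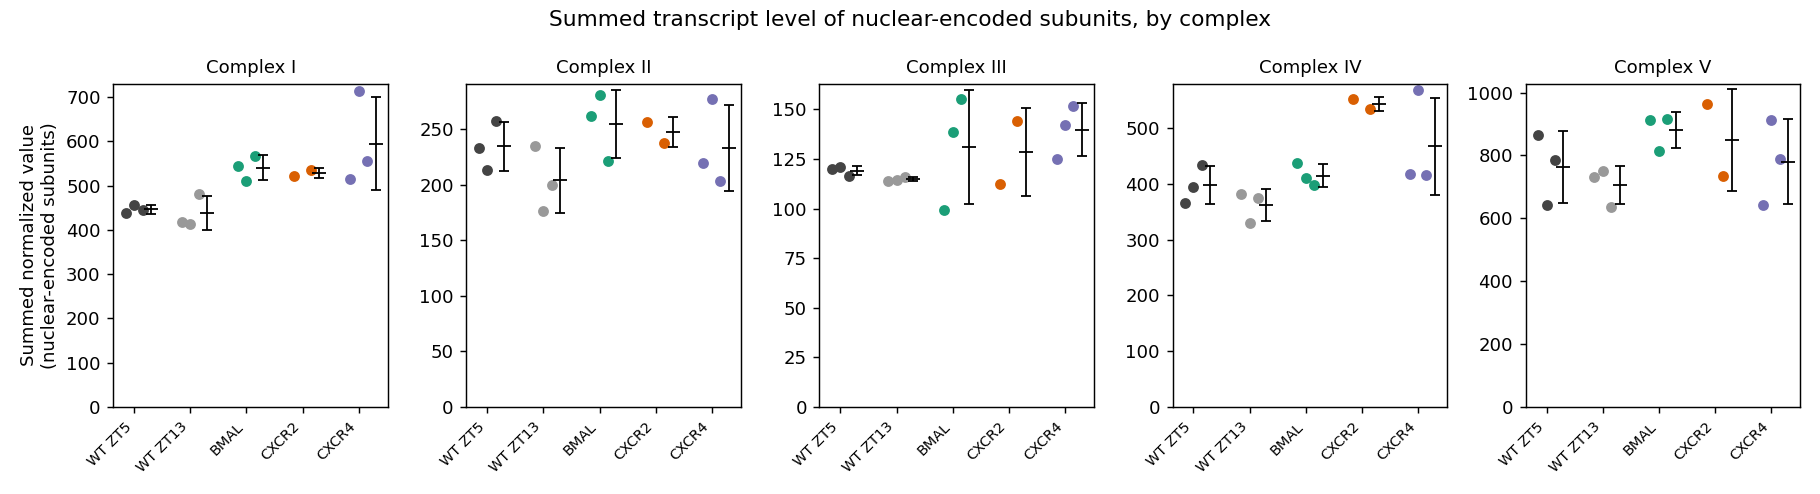
Summed normalised value of the nuclear-encoded subunits of each complex per library (points), with group mean and SD (bars), on linear axes from 0. For complex I the 8 Mrp8Cre libraries (510 to 715) lie above the 6 WT libraries (414 to 481).

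For the core subunits the intervals show which sizes of change lay within the error. The 95% interval of the log2 difference from WT ZT5 lay within 1 log2 unit of 0 for 13 genes in WT ZT13 (16.7%, against 23.1% of all genes), 7 in the BMAL group (8.97%, against 22.2%), 2 in the CXCR2 group (2.56%, against 17.7%) and 9 in the CXCR4 group (11.5%, against 18.4%). Atp5b was the gene for which this held in all 4, with intervals such as -0.75 to 0.07 in the CXCR4 group. Sdha, the flavoprotein of complex II, had -0.83 to 0.20 at ZT13, -0.91 to 0.12 in the BMAL group and -0.73 to 0.30 in the CXCR4 group. Uqcrc2, a core protein of complex III, had -0.80 to 0.82, -0.92 to 0.69 and -0.69 to 0.92. For Uqcrfs1, the Rieske iron-sulphur protein, the interval reached from -1.10 to 1.03 in the CXCR4 group, so it held changes of 1 log2 unit in both directions. Further core subunits were also without a call. Ndufv1, which binds NADH in complex I, was at 17.0, 16.3 and 22.0 in WT ZT5, and its interval in the CXCR4 group ran from -1.45 to 0.86. Sdhb, the iron-sulphur subunit of complex II, was at 38.4, 36.3 and 26.0 in WT ZT5 and at 51.3 and 54.4 in the CXCR2 group, which did not overlap (log2 difference 0.66 ± 0.47, limma adjusted p = 0.574). Atp5a1, the alpha subunit of complex V, was at 284, 133 and 215 in WT ZT5 and between 122 and 211 in the other libraries, so that WT ZT5 replicates 5 and 9 were the highest of all. Its log2 difference from WT ZT5 lay between -0.49 and -0.34 in the 4 comparisons, with limma adjusted p from 0.420 to 0.602. Subunits with a tissue-specific partner elsewhere in the body were present in their common form: Cox4i1, Cox6a1, Cox6b1, Cox7a2 and Cox8a, at means of 65.9, 25.1, 25.1, 19.0 and 22.6 in WT ZT5. None of these 5 passed in any comparison by limma.

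**Figure D4:**
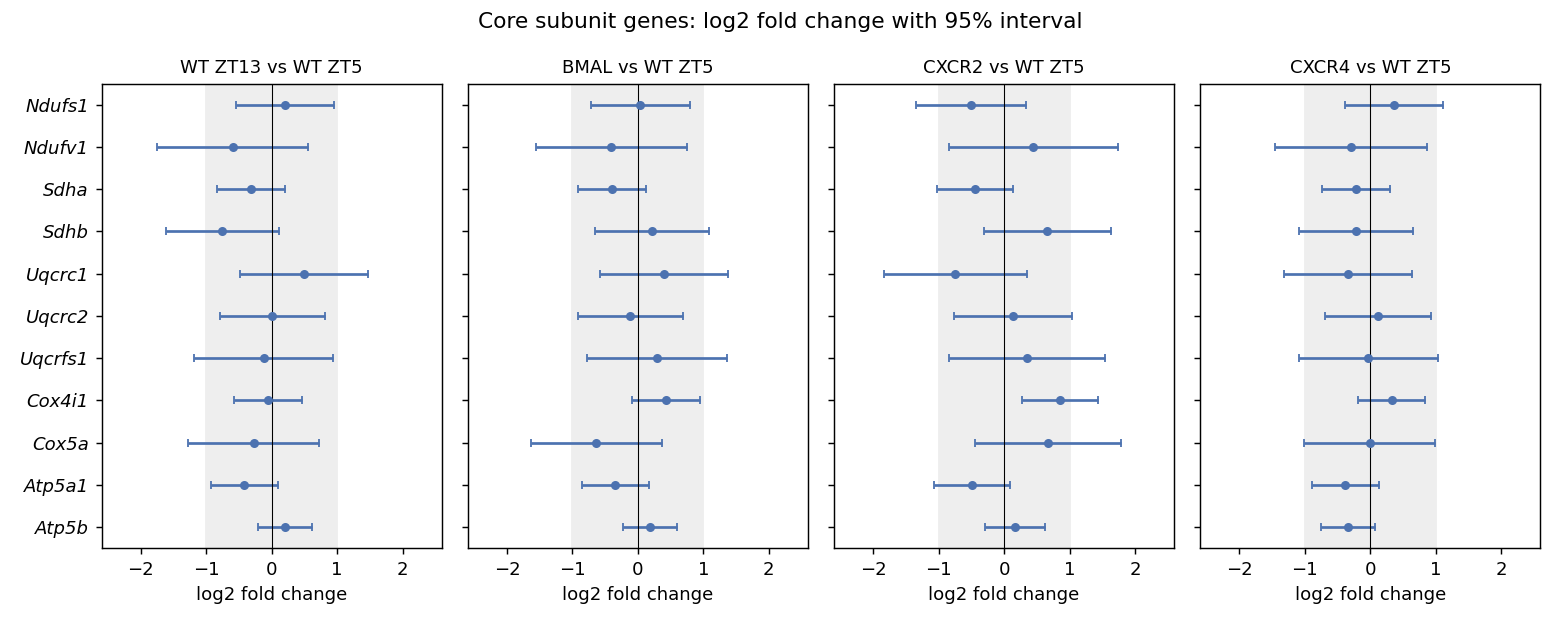
Log2 difference from WT ZT5 with its 95% interval (limma) for 11 core subunit genes in 4 comparisons; grey marks 1 log2 unit on either side of 0. Atp5b lies inside the grey band in all 4 panels.

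Of the subunits encoded by mitochondrial DNA, 8 were in the table, 5 of complex I, Cytb of complex III, Co1 of complex IV and Atp8 of complex V. They summed to 11412, 2208 and 3531 in WT ZT5 and to 1090 to 2078 in the other 11 libraries. Against WT ZT5, 1 of 8 fell in WT ZT13, 7 in the BMAL group, 4 in the CXCR2 group and 8 in the CXCR4 group, where 0.0355%, 0.613%, 0.453% and 4.15% of all genes fell. The 8 had median log2 differences of -1.66, -1.86, -1.62 and -1.81. WT ZT5 replicate 5 carried much of this: without it, 0, 0, 0 and 3 fell, with medians of -0.93, -1.20, -1.04 and -1.11. That library also had the highest B cell sum, and a link was not tested.

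**Figure D5:**
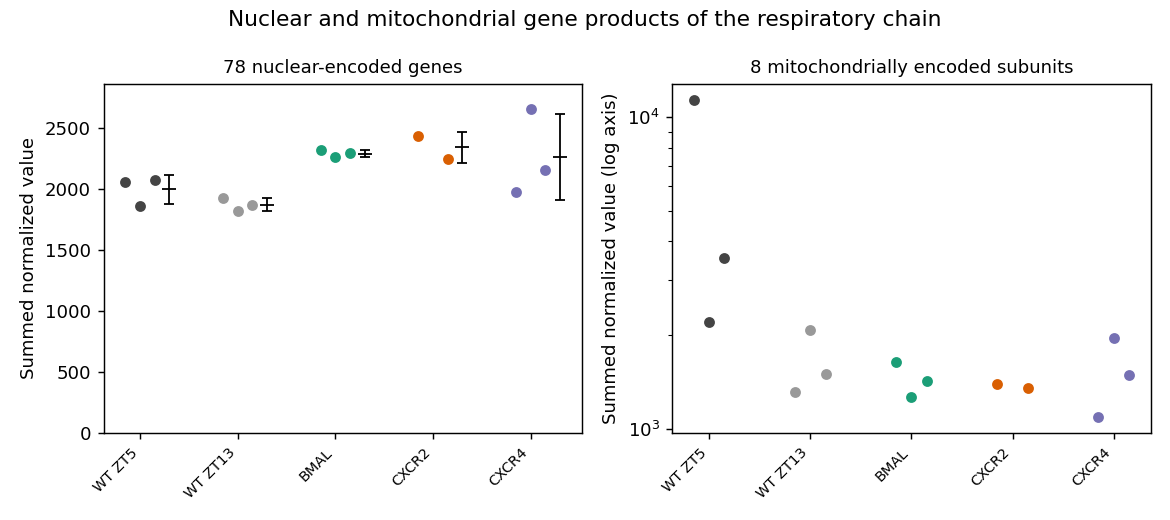
Summed normalised value per library of the 78 nuclear-encoded genes (left, linear axis, with group mean and SD) and of 8 mitochondrially encoded subunits (right, log axis). The nuclear sums lie between 1816 and 2650, while the mitochondrial sum of WT ZT5 replicate 5 reaches 11412.

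Neighbouring pathways differed in how many genes passed, and also in precision. In CXCR4 against WT ZT5 the median SE was 0.26 for glycolysis, 0.48 for the tricarboxylic acid cycle list and 0.66 for the 78 genes. It was 0.82 for assembly factors and electron carriers and 0.89 for mitochondrial ribosomal protein genes. Counts of calls therefore do not rank the lists by size of change. The median log2 difference there was 0.35 for glycolysis and 0.20 for the 78 genes. Of 16 genes of the tricarboxylic acid cycle and pyruvate dehydrogenase, Mdh2, its malate dehydrogenase, rose in the CXCR4 group, from 17.7 ± 2.09 (SD, n = 3) to 49.9 ± 30.5 (SD, n = 3; limma adjusted p = 0.0425), and none passed in the other comparisons with WT ZT5. Of 16 glycolysis genes, 3 rose and 1 fell in the CXCR4 group, against 8.2% of all genes called there, and 9 had an unadjusted p under 0.05, against 20.9%. None of the 16 passed in the other comparisons with WT ZT5. Gpi1 rose in the CXCR4 group from 295 ± 55.4 to 648 ± 123 (limma adjusted p = 0.000215), Hk3 and Aldoa also rose, and the glucose transporter gene Slc2a1 fell from 73.3 ± 4.83 to 33.3 ± 5.76 (limma adjusted p = 0.0108). Without WT ZT5 replicate 5, 1 glycolysis gene rose and 1 fell, and no gene of the tricarboxylic acid cycle list passed. None of 12 regulators of mitochondrial biogenesis and none of 53 mitochondrial ribosomal protein genes passed against WT ZT5. Of 40 assembly factors and electron carriers outside the set, none passed against WT ZT5, and Cox15, needed for the haem of complex IV, was higher in the CXCR4 than in the CXCR2 group (20.0 ± 4.2 against 2.11 ± 1.69, log2 difference 2.85, limma adjusted p = 0.0216).

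Some values carry a limit of identity. By exons 24 of the 78 genes overlap another gene and 11 another gene of the table, and the sources used here do not give strand use in counting. Ndufab1, Uqcrh, Atp5c1, Atp5k and Atp5l have named pseudogenes. Ndufb4c, on chromosome 15, is a pseudogene copy of Ndufb4, on chromosome 16. The values of all these genes are therefore uncertain.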

How the data were processed

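RNA of sorted neutrophils was sequenced in 14 libraries of 5 groups, taken from the labels. The authors deposited 1 table of normalised signal values per gene and library. Per the submitters' processing notes, CASAVA 1.8.2, cutadapt, RSEM 1.2.3 and GRCm38 were used. How the values were normalised was not stated in the sources used here. In each library 100% of values were whole multiples of the value of 1 read (tolerance 0.0001 reads), so reads were recovered by division.

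For each gene, log2(value + 1) was fitted in limma 3.58.1 (R 4.3.3) with eBayes and its trend option, using all libraries and groups at once. A mean value of 1 or more was required, which kept 11255 genes and dropped 33. Benjamini-Hochberg adjustment ran over every gene tested, with calls at 0.05. A log2 difference on this scale understates the change of low genes. Alternatives were edgeR 4.0.16 and DESeq2 1.42.0 on the recovered reads, other scalings, filters and pseudocounts, a replicate block, and leaving out each library. In the CXCR4 comparison with WT ZT5, edgeR called 693 genes and limma 923. The limma fit was tested on simulated data, with known changes in genes of a mean value of at least 5. Changes of 1 log2 unit were called for 19% (WT ZT13), 19% (BMAL), 5% (CXCR2) and 16% (CXCR4) of such genes. For changes of 2 log2 units the shares were 48%, 55%, 32% and 46%. The simulation changed the same number of genes in each comparison, while the data gave 9 calls (WT ZT13) to 923 (CXCR4). The adjusted p depends on how many genes change, so these shares are not the recovery in the data. Most changes of 1 log2 unit were missed in the simulation, and a gene without a call is not shown to be unchanged. Positions and transcript lengths came from GENCODE M21.

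Named genes were the core subunits (1 of them is not reported here), the complex IV isoforms, every called gene and the 5 of smallest p per comparison. The members and gene lists were chosen with earlier results of these data known. Floors of 3 reads cover counting error only.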

Additional observations from a re-analysis of the deposited data

How the results depend on the processing

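Between alternatives, no direction of a called gene reversed. The count of genes differing over the 5 groups (1) was 2 with DESeq2, 0 with the replicate block and 0 to 2 when single libraries were left out: 0 without WT ZT13 replicate 9, and 2 without BMAL replicate 2, CXCR2 replicate 5, WT ZT13 replicate 2 or WT ZT13 replicate 8. The CXCR4 count against WT ZT5 (1, Ndufs4) was 0 with edgeR, 0 with the replicate block (adjusted p = 0.316) and 2 with quantile normalisation, which added Ndufb3, and 0 to 1 without single libraries. DESeq2 called 1 gene in BMAL against WT ZT5 and 1 in CXCR4 against BMAL, Ndufa9 in both. The CXCR4 against CXCR2 count was 0 to 1 without single libraries, the 1 being without CXCR2 replicate 5. The remaining counts were 0 throughout.

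Median log2 differences moved as follows. For ZT13 the median was -0.27 with a pseudocount of 0.1 and 0.019 with quantile normalisation. Quantile normalisation gave 0.46 for BMAL, 0.42 for CXCR2 and 0.46 for CXCR4. The replicate block gave 0.14 for BMAL, 0.028 for CXCR2 and 0.18 for CXCR4 against BMAL. Without single libraries the medians ran from -0.22 to -0.10 (ZT13), 0.18 to 0.26 (BMAL), 0.10 to 0.22 (CXCR2), 0.13 to 0.28 (CXCR4), -0.0030 to 0.19 (CXCR4 against CXCR2), -0.083 to 0.21 (CXCR4 against BMAL) and -0.03 to 0.03 (BMAL against CXCR2). The cause of these shifts was not tested. Replicate numbers did not pair the samples: deviations of same-numbered libraries correlated at -0.037 to 0.017. The complex I scalings, its sums without the 3 highest genes or without Ndufa4 and Ndufb4c, and the mitochondrial, marker and pathway counts without WT ZT5 replicate 5 were chosen after seeing the data. At these depths, 16 of 78 genes had no read in some library, which limits what can be said of them.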
